A study of Homo sapiens with 18 samples.

Results

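Mitosis is driven by a set of genes whose transcripts peak late in the cell cycle, and 48 of them were followed here by symbol: the cyclins, CDK1 and CDC25 phosphatases of mitotic entry, the mitotic kinases, the chromosomal passenger complex, the spindle checkpoint and anaphase genes, the kinetochore and centromere genes, the kinesins, the spindle and cytokinesis genes, and a small group with FOXM1, MKI67, TOP2A and CDCA3. The rule names the genes by symbol and function and uses no measured value, but the set was drawn up with earlier results of these data known. All 48 were among the 15358 genes listed in MCF10A cells and the 15257 listed in hTERT RPE-1 cells (RPE-1 from here on), and all 48 passed the filter on low values in both lines. MCF10A is a near-normal human breast epithelial line, and RPE-1 is a human retinal pigment epithelial line immortalized with telomerase. Each line was transfected with 30 nM of a non-targeting siRNA (siNT, the control), the hsa-miR-28-5p mimic or the hsa-miR-708-5p mimic for 72 h, and polyadenylated RNA of 3 biological replicates a group was sequenced, numbered 7, 8 and 9 in MCF10A and 1, 2 and 3 in RPE-1. All groups carry a transfected small RNA, and untransfected cells were not analysed here. A mimic is a synthetic duplex that raises its microRNA far above the cell's own level, and each line is a single established culture. The study asked how both mimics, which share a seed, change the transcripts of the cell.

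As background, entry into mitosis needs CDK1 bound to cyclin B, which WEE1 and PKMYT1 hold inactive and CDC25 phosphatases switch on. Kinetochores then bind the spindle, the checkpoint proteins MAD2, BUB1 and TTK hold back the anaphase-promoting complex until all chromosomes are attached, and CDC20 with that complex releases separase (ESPL1) to cut cohesin. The promoters of these genes are repressed in quiescent cells and in early G1 by the DREAM complex and are switched on by MYBL2, FOXM1 and the MuvB core, acting through the cell cycle genes homology region (CHR) and CCAAT boxes. The p53 target CDKN1A (p21) keeps DREAM in its repressing form. In a culture measured in bulk, a larger share of cells in G2 and mitosis cannot be told apart from more of these transcripts per cell.

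The sequence of the mimic is shown first because its seed, bases 2 to 8 and here in capitals, sets which letters can be matched in a transcript. RefSeq (GRCh38.p14) places the mature strand on the minus strand of MIR708 at chr11:79402077-79402099.
hsa-miR-708-5p: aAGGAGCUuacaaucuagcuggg

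Matches to this seed in 3′ UTRs were rare among the mitotic genes. The match was searched as GCTCCT (6mer), as AGCTCCT or GCTCCTA (7mers) and as their union (8mer) in 1 transcript a gene of GENCODE 44 on hg38. A 7mer or 8mer was found in 4 of the 48 genes (8.33%), against 18.7% of 11917 genes, and 40 of the 48 (83.3%) held no match at all, against 64.2%. These shares take no account of 3′ UTR length, which ran from 58 bases in PTTG1 to 6632 in BUB3 among the 48. The 4 sites with a 7mer or 8mer are printed because they are the longest matches to the shared seed among the members. Capitals mark the match, and each site lies in the last exon, within the 3′ UTR. They are an 8mer in CENPF (chr1:214664158-214664163 for the central 6 bases, plus strand, exon 20 of 20), an 8mer in SPC24 (chr19:11146426-11146431, minus strand, exon 5 of 5), a 7mer in MAD2L1 (chr4:120059641-120059646, minus strand, exon 5 of 5) and a 7mer in MKI67 (chr10:128098427-128098432, minus strand, exon 15 of 15).
CENPF: ttctaattaacAGCTCCTAggaaaatgtag
SPC24: ttttcggcctcAGCTCCTAgagtggcctca
MAD2L1: tattgctgtatAGCTCCTtttgaccttcat
MKI67: gacctcaaactgGCTCCTAatctccagctt
Of the others, BIRC5, CDC25B, CENPA and FOXM1 held the 6mer only.

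Promoter letters were shared by far more of the members. RefSeq promoter windows, from 250 bases before to 50 after the start, were matched for 41 of the 48 genes and for 10369 of all genes tested in both lines. The letters TTTGAA or TTCGAA of the CHR, searched on both strands, were present in 30 of the 41 (73.2%) against 11.6% of all genes, and in 26 of the 30 the copy nearest to the start lay within 50 bases of it. A CCAAT box was present in 32 (78.0%) against 37.0%, and both motifs in 25 (61.0%) against 5.0%. Windows of 30 bases around the CHR letters, in capitals, are shown for genes of different roles to let the reader see the shared element: CCNB2 (chr15:59105105-59105134, plus strand), PLK1 (chr16:23678848-23678877, plus), CDCA8 (chr1:37692481-37692510, plus), CENPA (chr2:26786026-26786055, plus), KIF4A (chrX:70290058-70290087, plus), PRC1 (chr15:90994538-90994567, minus) and MKI67 (chr10:128126435-128126464, minus).
CCNB2: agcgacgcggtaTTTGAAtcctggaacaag
PLK1: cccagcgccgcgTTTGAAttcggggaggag
CDCA8: gtgactgtggagTTTGAAttgggtggcggt
CENPA: cggagcgagcgaTTTGAAcgcgagcggcgc
KIF4A: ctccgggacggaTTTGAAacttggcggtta
PRC1: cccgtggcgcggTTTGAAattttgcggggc
MKI67: tcttcgttttcgTTTGAAttgggcgggcgc
A match of these letters is a description of the window and not a bound site. In CCNA2 and CCNB1 only CCAAT was matched, and KIF2C held no CHR letters.

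The values are normalized read counts, estimated reads of a gene divided by a size factor of the library, and the tables of both lines were scaled separately, so levels are compared within a line only. Depth, read from the steps of low values, was 19.4 to 31.7 M reads on genes in MCF10A and 23.8 to 40.4 M in RPE-1, and 3 reads, the limit that a count of 0 allows, were worth 2.35 to 4.40 on this scale (counting error only). The 48 genes stood well above it, from 209 to 19538 in MCF10A and from 74.99 to 17407 in RPE-1. Ribosomal RNA took 15.1% of the hsa-miR-28-5p replicate 1 library of RPE-1 and 4.23 to 7.20% of the other RPE-1 libraries. Breast epithelial markers were all listed in MCF10A (9 of 9, with a summed value of 229790.0 to 246330.0 for siNT, 157940.0 to 171800.0 for hsa-miR-28-5p and 131470.0 to 161700.0 for hsa-miR-708-5p), and 6 of them, KRT5, KRT14 and EPCAM included, were not listed in RPE-1. Of 10 retinal pigment epithelial markers 8 were listed in RPE-1, but RPE65 and TYR were not and RLBP1 lay between 1.47 and 15.3, so these 3 defining genes of the tissue were not listed or low. The list pointed both ways, since MITF was 1757 to 2031 and OTX2 879 to 991 with siNT in RPE-1, and OTX2 was not listed in MCF10A. The summed value of those 8, mostly KRT8 and KRT18, was 29385.0 to 31696.0 for siNT, 11670.0 to 12847.0 for hsa-miR-28-5p and 7310.5 to 7741 for hsa-miR-708-5p. Of 5 mesenchymal markers all were listed in both lines. Their summed value, mostly FN1 in RPE-1, was 1241200.0 to 1972000.0 for siNT, 1435100.0 to 1844600.0 for hsa-miR-28-5p and 930000.0 to 1073000.0 for hsa-miR-708-5p there, with COL1A1 at 22655 to 67366, 5438 to 17209 and 1505 to 5120 in the same order. In MCF10A the mesenchymal sum was 23839 to 40980.0, 22320.0 to 65464 and 38363 to 88459, with overlapping groups. Whether these shifts bear on the mitotic genes was not tested.

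For the mitotic genes 2 libraries stood apart. In RPE-1, siNT replicate 2 was the lowest siNT library for 47 of the 48 (32.4% of all genes were lowest there), and hsa-miR-708-5p replicate 2 was the lowest of its group for 47 (37.6% of all genes). The number of the 48 called is therefore also given without both libraries for each RPE-1 comparison and for the difference between the lines with hsa-miR-708-5p, and other counts in RPE-1 are given with all libraries.

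In RPE-1 cells treated with hsa-miR-708-5p, mitotic transcripts of all 8 roles rose. By limma on log2(value + 1), with Benjamini-Hochberg adjustment over 14527 genes and a call at adjusted p below 0.05, 43 of the 48 were called higher and 0 lower, where 30.9% of all genes tested were called higher and 31.2% lower. Of the 43, 30 were at least 2-fold higher, which 12.7% of all genes were. The median log2 fold change of the 48 was 1.11 (all genes, 0.00), and all 48 fold changes were above 0, as were 50.1% over all genes. In 40 of the 48 the lowest hsa-miR-708-5p library lay above the highest siNT library, as it did in 34.3% of all genes. Without replicate 2 of both groups, 43 were again called higher and 0 lower, with a median of 1.07. Scaling by library size in place of the deposited size factors moved the median of all genes by 0.32 on the log2 scale and their calls from 4486 higher and 4538 lower to 6778 and 2660, while 44 of the 48 were then called higher, with a median of 1.42.

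The other 3 comparisons with siNT gave smaller and mixed changes. In RPE-1, hsa-miR-28-5p left 36 of the 48 without a call, with 10 higher (23.3% of all genes) and 2 lower (23.5%), and a median of 0.26 on the log2 scale. In MCF10A, hsa-miR-28-5p gave 8 higher (10.7% of all genes) and 2 lower (12.0%), with a median of 0.15, and hsa-miR-708-5p gave 12 higher (15.5%) and 6 lower (17.3%), with a median of 0.12. In both directions together hsa-miR-28-5p gave 10 calls in MCF10A, where 22.7% of all genes were called, and 12 in RPE-1, where 46.8% were. The totals for hsa-miR-708-5p were 18 in MCF10A (37.5% of the members against 32.8% of all genes) and 43 in RPE-1 (89.6% against 62.1%). Scaling by library size in MCF10A moved the median of all genes by 0.12 and 0.14, and the members called to 17 higher and 1 lower under hsa-miR-28-5p and 20 higher and 4 lower under hsa-miR-708-5p.

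Library by library, the median log2 ratio of the 48 genes to the siNT mean was 0.24, -0.36 and 0.11 in the siNT libraries of RPE-1, 0.15, 0.30 and 0.31 for hsa-miR-28-5p, and 1.23, 0.84 and 1.37 for hsa-miR-708-5p. All hsa-miR-708-5p libraries lay above all others of the line. In MCF10A these medians ran from -0.07 to 0.24 over the 9 libraries, and the groups overlapped. The 48 genes together took 0.207, 0.129 and 0.195% of the siNT libraries in RPE-1, 0.184, 0.225 and 0.226% of those with hsa-miR-28-5p and 0.483, 0.379 and 0.513% of the hsa-miR-708-5p libraries. Their share in MCF10A was 0.501 to 0.518% with siNT, 0.570 to 0.645% for hsa-miR-28-5p and 0.530 to 0.587% for hsa-miR-708-5p.

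**Figure D1:**
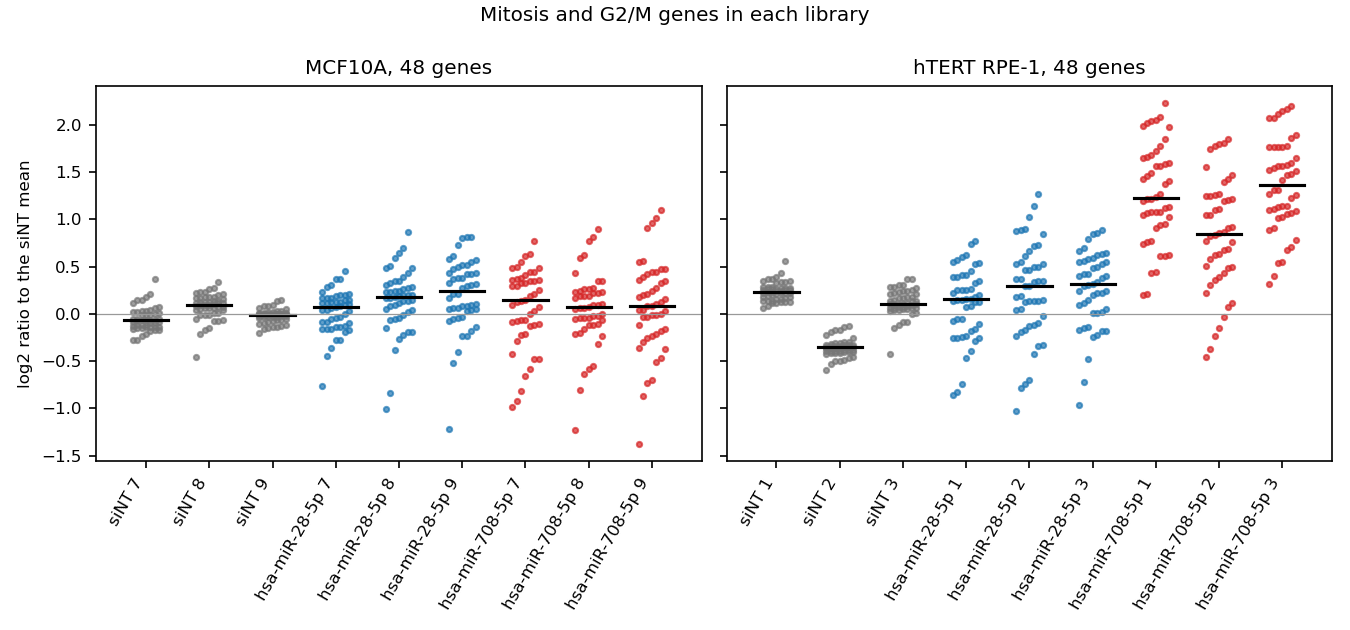
Each point is 1 of the 48 mitosis and G2/M genes in 1 library, as the log2 ratio of its value to the siNT mean of the same line (vertical axis, log2 units), and black bars are medians. Libraries are on the horizontal axis by group and replicate number. In RPE-1 the hsa-miR-708-5p libraries have medians of 1.23, 0.84 and 1.37, and siNT replicate 2 has the lowest, -0.36.

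Mitotic entry came first. All 6 genes of cyclins, CDK1 and CDC25 were called higher with hsa-miR-708-5p in RPE-1 (median log2 fold change 1.03), 3 were called there with hsa-miR-28-5p, and 2 with each mimic in MCF10A. CDK1 (GRCh38.p14 chr10:60778331-60794852), the kinase that drives entry, had values in RPE-1 of 655, 452 and 627 (siNT), 957, 1258 and 1029.8 (hsa-miR-28-5p) and 2362, 1963 and 2407 (hsa-miR-708-5p). The groups did not overlap, and CDK1 rose 3.91-fold with hsa-miR-708-5p (log2 fold change 1.97, SE 0.16, adjusted p = 2.82e-06) and 1.88-fold with hsa-miR-28-5p (adjusted p = 0.000907). The same gene in MCF10A read 2155, 2492 and 2291 (siNT), 2802, 3223 and 3096 (hsa-miR-28-5p) and 3389.6, 2762 and 3215 (hsa-miR-708-5p), again with both mimics above every siNT library. It rose there 1.31-fold and 1.35-fold.

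CCNB1, the B-type cyclin that activates CDK1, measured 1207, 821 and 1033 (siNT), 1323, 1045 and 1156 (hsa-miR-28-5p) and 2435, 1564 and 2229 (hsa-miR-708-5p) in RPE-1. Only the hsa-miR-708-5p group was clear of siNT, 2.02-fold higher (log2 1.02, SE 0.18, adjusted p = 0.000637). In MCF10A CCNB1 was 4419.5, 5771 and 4833 (siNT), 4700.5, 6079.9 and 6477 (hsa-miR-28-5p) and 6235, 5680.5 and 6667 (hsa-miR-708-5p), with overlapping groups and no call. CCNA2, the cyclin of S phase and G2, had 1237, 830.2 and 1299 (siNT), 1216, 1354 and 1285 (hsa-miR-28-5p) and 2557, 1755 and 2575 (hsa-miR-708-5p) in RPE-1, where hsa-miR-708-5p changed it by log2 1.04 (SE 0.18). Its MCF10A values were 2362, 2842 and 2581 (siNT), 2441, 2689.8 and 2645 (hsa-miR-28-5p) and 3343, 2690.1 and 2670.3 (hsa-miR-708-5p), and neither mimic gave a call. CCNB2, a second B-type cyclin, rose 1.85-fold with hsa-miR-708-5p in RPE-1 and was not called elsewhere.

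CDC25C (GRCh38.p14 chr5:138285265-138338355), a phosphatase that activates CDK1, was the member with the largest rise in RPE-1. Its values were 109.6, 74.99 and 109 (siNT), 146, 197 and 174 (hsa-miR-28-5p) and 456, 339.6 and 429 (hsa-miR-708-5p), a 4.17-fold rise with hsa-miR-708-5p (log2 2.06, SE 0.19) and 1.77-fold with hsa-miR-28-5p. In MCF10A CDC25C was 359, 397 and 389.8 (siNT), 449, 619 and 670.2 (hsa-miR-28-5p) and 535, 715 and 774 (hsa-miR-708-5p), with no mimic library at or below a siNT library and log2 fold changes of 0.58 and 0.80. CDC25B, the phosphatase that acts earlier at the centrosome, was 969, 630.4 and 867 (siNT), 963, 1115 and 1166 (hsa-miR-28-5p) and 1675, 1473 and 1773 (hsa-miR-708-5p) in RPE-1, called higher with both mimics (log2 0.41 and 1.01), although the lowest hsa-miR-28-5p library lay below the highest siNT library. In MCF10A CDC25B was 6268, 6542 and 6009.9 (siNT), 6682, 6001 and 6638 (hsa-miR-28-5p) and 6381, 6179.9 and 6438 (hsa-miR-708-5p), with log2 fold changes of 0.04 and 0.01 that were not called.

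The 4 mitotic kinases were all higher with hsa-miR-708-5p in RPE-1. PLK1, which promotes entry, centrosome maturation and cytokinesis, read 765, 465 and 631 (siNT), 514, 364 and 537 (hsa-miR-28-5p) and 1164, 641 and 1229 (hsa-miR-708-5p) there. Its log2 fold change was 0.68 (SE 0.26, adjusted p = 0.0432), but hsa-miR-708-5p replicate 2 fell within the siNT range. In MCF10A PLK1 was 1592, 2049 and 1755 (siNT), 1394, 1568 and 1723 (hsa-miR-28-5p) and 1972, 1736 and 1898 (hsa-miR-708-5p) and was not called. AURKA, the centrosomal Aurora kinase, gave 804, 548 and 744 (siNT), 576, 588 and 627 (hsa-miR-28-5p) and 1334, 804 and 1477 (hsa-miR-708-5p) in RPE-1, a log2 fold change of 0.76 (SE 0.21) with hsa-miR-708-5p, whose replicate 2 lay level with the highest siNT library, and no call with hsa-miR-28-5p (-0.21). Its values in MCF10A were 2176, 2709 and 2335 (siNT), 2152, 2329 and 2702 (hsa-miR-28-5p) and 2403, 2230.3 and 2339.8 (hsa-miR-708-5p), all groups overlapping.

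PLK4, which starts centriole duplication, moved in opposite directions in the 2 lines. In RPE-1 it was 458, 304 and 430.0 (siNT), 346, 598 and 464 (hsa-miR-28-5p) and 1075, 908 and 1159.8 (hsa-miR-708-5p), 2.66-fold higher with hsa-miR-708-5p (log2 1.41, SE 0.21). In MCF10A it was 918, 951 and 913 (siNT), 809.8, 774 and 649 (hsa-miR-28-5p) and 668, 617 and 559 (hsa-miR-708-5p), below every siNT library with both mimics and called lower with hsa-miR-708-5p (log2 -0.60, adjusted p = 0.00274). With hsa-miR-28-5p the log2 fold change of -0.32 missed the threshold (adjusted p = 0.0652) and passed it with the replicate number as a block (adjusted p = 0.0373). NEK2, a kinase of centrosome separation, was called higher in all 4 comparisons with siNT, by log2 0.36 and 0.37 in MCF10A and 0.59 and 1.45 in RPE-1. The RPE-1 call with hsa-miR-708-5p held in all 16 alternatives, while the RPE-1 call with hsa-miR-28-5p was lost in 6 of 16 and the MCF10A calls in 7 (hsa-miR-28-5p) and 5 (hsa-miR-708-5p) of 15, most of them single libraries left out.

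The chromosomal passenger complex, which corrects wrong attachments and directs cytokinesis, was called higher in all 3 measured subunits with hsa-miR-708-5p in RPE-1. AURKB, its kinase, was 249.5, 181 and 188 (siNT), 224, 379 and 299 (hsa-miR-28-5p) and 804, 600.2 and 744 (hsa-miR-708-5p). It rose 3.47-fold with hsa-miR-708-5p (log2 1.79, SE 0.20), and with hsa-miR-28-5p the log2 fold change of 0.52 had an adjusted p of 0.0539. In MCF10A AURKB was 368, 542 and 447 (siNT), 503, 508 and 579 (hsa-miR-28-5p) and 549, 524 and 455 (hsa-miR-708-5p) and was not called. CDCA8 (borealin) measured 574, 361 and 456 (siNT), 546, 500.3 and 565 (hsa-miR-28-5p) and 1057, 702 and 1263 (hsa-miR-708-5p) in RPE-1, 2.15-fold higher with hsa-miR-708-5p, and 752, 877 and 866 (siNT), 963, 1252 and 1448 (hsa-miR-28-5p) and 1285, 1253 and 1615 (hsa-miR-708-5p) in MCF10A, where both mimics raised it by log2 0.54 and 0.73. No mimic library of MCF10A reached down to the siNT range of CDCA8. BIRC5 (survivin) was called only with hsa-miR-708-5p in RPE-1, at log2 0.85.

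Spindle checkpoint and anaphase genes divided. Of 9, 7 were called higher with hsa-miR-708-5p in RPE-1, and the largest was TTK (GRCh38.p14 chr6:80004649-80042527), the kinase at the head of the checkpoint. TTK read 496, 338 and 451 (siNT), 565, 789.8 and 631 (hsa-miR-28-5p) and 1746, 1415 and 1841 (hsa-miR-708-5p) in RPE-1, with the 3 groups apart in rising order, 1.55-fold higher with hsa-miR-28-5p and 3.91-fold with hsa-miR-708-5p (log2 1.97, SE 0.17, adjusted p = 4.81e-06). In MCF10A the values were 1848, 1606 and 1574 (siNT), 1665, 1698 and 1589.8 (hsa-miR-28-5p) and 1593, 1536 and 1426 (hsa-miR-708-5p), with overlapping groups and log2 fold changes of -0.02 and -0.14 that were not called. BUB1, the kinase that recruits the checkpoint to kinetochores, was 1078, 695 and 923 (siNT), 978, 1279 and 1172 (hsa-miR-28-5p) and 2929, 2107 and 3015 (hsa-miR-708-5p) in RPE-1 and 2.99-fold higher with hsa-miR-708-5p. In MCF10A it was 1969, 2320.4 and 1868 (siNT), 2202, 2348 and 2564 (hsa-miR-28-5p) and 2716, 2406 and 2567 (hsa-miR-708-5p), called higher with hsa-miR-708-5p only (log2 0.32, adjusted p = 0.0346).

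BUB3, which carries BUB1 to the kinetochore, had the narrowest interval among the 48 genes for hsa-miR-708-5p in RPE-1. Its values there were 4354, 3679 and 4028 (siNT), 5482, 5666 and 5069 (hsa-miR-28-5p) and 8143, 6474 and 8394 (hsa-miR-708-5p). Both mimics stood above siNT, by log2 0.43 (SE 0.11) and 0.93 (SE 0.11). In MCF10A its values were 4041, 4065 and 4695 (siNT), 4521, 4882 and 4928 (hsa-miR-28-5p) and 5089, 4473 and 5029.8 (hsa-miR-708-5p), and neither mimic was called. BUB1B, the kinase-like partner of BUB3 in the checkpoint complex, was called only with hsa-miR-708-5p in RPE-1, at log2 0.64.

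MAD2L1 (GRCh38.p14 chr4:120055623-120066848), the checkpoint protein MAD2, was called lower in 3 of the 4 comparisons with siNT. In MCF10A it was 2161, 2331 and 2292 (siNT), 1330.0, 1124 and 969.8 (hsa-miR-28-5p) and 1627, 964 and 867 (hsa-miR-708-5p), below every siNT library with both mimics, and fell by 0.997 on the log2 scale with hsa-miR-28-5p (SE 0.20, adjusted p = 0.0058). For hsa-miR-708-5p it fell by 1.03 (SE 0.20, adjusted p = 0.00277). In RPE-1 it was 584, 379 and 514 (siNT), 273, 362 and 247 (hsa-miR-28-5p) and 557, 438 and 602 (hsa-miR-708-5p). There it fell by 0.74 on the log2 scale with hsa-miR-28-5p (adjusted p = 0.0103), while with hsa-miR-708-5p it overlapped siNT, with a log2 fold change of 0.12 (95% interval -0.31 to 0.55). It is 1 of the 4 members with a 7mer or 8mer seed match, printed above.

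Anaphase genes followed. CDC20, the activator of the anaphase-promoting complex, was 862, 592 and 612 (siNT), 628, 418 and 603 (hsa-miR-28-5p) and 1039, 524 and 1112 (hsa-miR-708-5p) in RPE-1, and hsa-miR-708-5p replicate 2 lay below every siNT library, so the log2 fold change of 0.32 had an interval of -0.29 to 0.93 and no call. In MCF10A CDC20 was 1603, 2180.2 and 1731 (siNT), 1971, 2208 and 2718 (hsa-miR-28-5p) and 2339, 2119 and 2343 (hsa-miR-708-5p), and log2 fold changes of 0.32 and 0.31 were not called. UBE2C, the ubiquitin carrier of that complex, measured 439, 257 and 346 (siNT), 496, 372 and 499 (hsa-miR-28-5p) and 1008, 640.2 and 910.5 (hsa-miR-708-5p) in RPE-1, 2.46-fold higher with hsa-miR-708-5p. In MCF10A it was 974, 1151 and 1059 (siNT), 1032, 1145 and 1491 (hsa-miR-28-5p) and 1301, 1274 and 1439.6 (hsa-miR-708-5p), with hsa-miR-708-5p above every siNT library but not called (adjusted p = 0.0753, and 0.032 with the replicate number as a block).

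PTTG1 (securin), the inhibitor of separase, read 566, 331.39 and 583 (siNT), 570.4, 609 and 673 (hsa-miR-28-5p) and 1449, 986 and 1396 (hsa-miR-708-5p) in RPE-1 and rose 2.63-fold with hsa-miR-708-5p. It had no call in MCF10A, at 2468, 2943 and 2667 (siNT), 2438, 2758 and 3294 (hsa-miR-28-5p) and 2980.5, 2802 and 2989.9 (hsa-miR-708-5p). ESPL1 (separase) went down in MCF10A, 454, 559 and 502 (siNT), 370.0, 281.95 and 379 (hsa-miR-28-5p) and 319.04, 287 and 275 (hsa-miR-708-5p), with both mimics below every siNT library and log2 fold changes of -0.56 and -0.78. In RPE-1 it was 298, 183 and 213 (siNT), 135, 207 and 137 (hsa-miR-28-5p) and 379.8, 339 and 545 (hsa-miR-708-5p), higher with hsa-miR-708-5p (log2 0.86, adjusted p = 0.00962) and not called with hsa-miR-28-5p (-0.53, adjusted p = 0.0946).

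All 7 kinetochore and centromere genes were called higher with hsa-miR-708-5p in RPE-1 (median log2 fold change 1.44). None passed under hsa-miR-28-5p, SPC25 being nearest (log2 0.61, adjusted p = 0.0553). NDC80, the subunit that grips the microtubule, was 546, 380.0 and 605 (siNT), 525, 569 and 544 (hsa-miR-28-5p) and 1148, 890.3 and 1239.8 (hsa-miR-708-5p) in RPE-1, 2.16-fold higher with hsa-miR-708-5p, and its hsa-miR-28-5p values lay inside the siNT range. In MCF10A NDC80 was 1019.9, 1017 and 1180.4 (siNT), 976, 1142 and 1129.5 (hsa-miR-28-5p) and 1123, 1072 and 946 (hsa-miR-708-5p), with log2 fold changes of 0.01 and -0.03. The partners NUF2, SPC24 and SPC25 of the same complex rose by log2 1.45, 0.89 and 1.78 with hsa-miR-708-5p in RPE-1, and none was called in MCF10A.

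CENPA (GRCh38.p14 chr2:26786056-26794589), the histone that marks the centromere, was higher with the mimics in both lines. It was 338, 385 and 393 (siNT), 509, 675 and 617 (hsa-miR-28-5p) and 633, 655 and 798 (hsa-miR-708-5p) in MCF10A, with log2 fold changes of 0.68 (SE 0.14) and 0.90 (SE 0.14, adjusted p = 0.000861), the largest rises among the members there. In RPE-1 CENPA was 148, 114 and 147 (siNT), 208, 153 and 216 (hsa-miR-28-5p) and 402, 292 and 467 (hsa-miR-708-5p), called with hsa-miR-708-5p (log2 1.48) and not with hsa-miR-28-5p (log2 0.49, adjusted p = 0.0729), although no library of either mimic overlapped siNT.

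CENPE, the kinesin that moves chromosomes to the spindle equator, went opposite ways. It was 1501, 1036 and 1674 (siNT), 1153, 1745 and 1708 (hsa-miR-28-5p) and 2905, 2599.7 and 3919 (hsa-miR-708-5p) in RPE-1, 2.25-fold higher with hsa-miR-708-5p, and 4011, 2259 and 3322 (siNT), 3553, 3493 and 3011 (hsa-miR-28-5p) and 1571, 2124 and 2179 (hsa-miR-708-5p) in MCF10A, where hsa-miR-708-5p lay below siNT (log2 -0.68, adjusted p = 0.018) and hsa-miR-28-5p did not (0.10). The siNT libraries of MCF10A spread widely for CENPE, and the call was lost without siNT replicate 7, without siNT replicate 9 and without hsa-miR-708-5p replicate 7, as well as under library size scaling and without the variance trend. CENPF, a large kinetochore protein of G2 and mitosis, was 5606, 3471 and 5662 (siNT), 5236, 6744 and 6429 (hsa-miR-28-5p) and 13449, 11353 and 14483 (hsa-miR-708-5p) in RPE-1, with the hsa-miR-708-5p group wholly above siNT (log2 1.44, SE 0.18). In MCF10A it was 16764, 12509 and 14391 (siNT), 16223, 18371 and 19538 (hsa-miR-28-5p) and 7623, 13364 and 14318 (hsa-miR-708-5p), and hsa-miR-708-5p replicate 7 was far below its group. Its log2 fold changes there, 0.32 and -0.35, were not called.

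Of the 8 kinesins, 7 were called higher with hsa-miR-708-5p in RPE-1 (median log2 fold change 1.45). KIF11, the motor that pushes spindle poles apart, read 2083, 1487 and 2125 (siNT), 2095, 2579 and 2466 (hsa-miR-28-5p) and 4854, 4006 and 5566 (hsa-miR-708-5p), with hsa-miR-708-5p above all other libraries (2.54-fold). In MCF10A KIF11 was 3331, 3305 and 3242 (siNT), 3446, 3617 and 3438 (hsa-miR-28-5p) and 3025, 3449 and 2838 (hsa-miR-708-5p) and was not called. KIF2C (GRCh38.p14 chr1:44739837-44767767), which removes tubulin from microtubule ends, was 633, 364 and 506 (siNT), 726, 879.7 and 906 (hsa-miR-28-5p) and 2067, 1701 and 2248 (hsa-miR-708-5p) in RPE-1, rising 1.71-fold and 4.07-fold (log2 2.03, SE 0.19). Its values in MCF10A were 1198, 1305 and 1232 (siNT), 1359.5, 1632 and 1847 (hsa-miR-28-5p) and 1740.1, 1676 and 1815 (hsa-miR-708-5p), above siNT in every mimic library and called with both, at log2 0.36 and 0.49.

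KIF20B (GRCh38.p14 chr10:89701590-89774934), a motor of cytokinesis, gave 1707, 1187 and 1855 (siNT), 1812, 3759 and 2524 (hsa-miR-28-5p) and 5614, 5612 and 6969.5 (hsa-miR-708-5p) in RPE-1. The hsa-miR-708-5p group stood above all others (log2 1.96, SE 0.24), while the hsa-miR-28-5p call (log2 0.73) rested on a group whose lowest library overlapped siNT and was lost without siNT replicate 2 and without hsa-miR-28-5p replicate 2 or 3. In MCF10A KIF20B was 3315, 2596 and 2917 (siNT), 3615, 3514 and 3065 (hsa-miR-28-5p) and 2176, 2881 and 2375 (hsa-miR-708-5p), with log2 fold changes of 0.21 and -0.25 that were not called. KIF14, another motor of cytokinesis, was higher in RPE-1 with hsa-miR-708-5p (log2 1.07) and lower in MCF10A (log2 -0.51, adjusted p = 0.0152), where the call was lost without siNT replicate 7 and under library size scaling (adjusted p of up to 0.0736). KIF4A, KIF18A and KIF23 rose by log2 1.55, 1.57 and 0.73 in RPE-1.

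KIF20A, a motor of the central spindle, was the kinesin without a call. It read 1367, 914 and 1422 (siNT), 1282, 594 and 1432 (hsa-miR-28-5p) and 1645, 883 and 1599.7 (hsa-miR-708-5p) in RPE-1, with replicate 2 lowest in every group. The log2 fold change of 0.13 with hsa-miR-708-5p had an interval of -0.61 to 0.87, the widest among the members for that comparison. In MCF10A KIF20A was 2564, 3489 and 2938 (siNT), 2661, 3517 and 3664 (hsa-miR-28-5p) and 3447, 3391 and 3161 (hsa-miR-708-5p), with overlapping groups.

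All 7 spindle and cytokinesis genes were called higher with hsa-miR-708-5p in RPE-1. TPX2, the factor that activates AURKA on the spindle, was 2776, 1776 and 2572 (siNT), 2932, 2861 and 3117 (hsa-miR-28-5p) and 6258, 4233 and 6532 (hsa-miR-708-5p). It was 2.39-fold higher with hsa-miR-708-5p, and with hsa-miR-28-5p all libraries lay above siNT without a call (log2 0.35, adjusted p = 0.149). In MCF10A TPX2 was 7259, 7585 and 6549 (siNT), 7334, 8378 and 9574 (hsa-miR-28-5p) and 10066, 8411 and 9055 (hsa-miR-708-5p), called with hsa-miR-708-5p only, at log2 0.36. HMMR, a spindle protein that binds hyaluronan outside the cell, was 607, 344 and 668 (siNT), 691, 671 and 726 (hsa-miR-28-5p) and 2062, 1361 and 2183 (hsa-miR-708-5p) in RPE-1, 3.53-fold higher with hsa-miR-708-5p. In MCF10A HMMR was 2451, 2731 and 2622 (siNT), 3354, 4075 and 3799 (hsa-miR-28-5p) and 3377, 3994 and 3837 (hsa-miR-708-5p), a rise of log2 0.52 and 0.52 with no overlap.

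NUSAP1, which bundles spindle microtubules, read 1077, 702 and 936 (siNT), 1299, 1640.4 and 1542 (hsa-miR-28-5p) and 3052, 2469 and 3039 (hsa-miR-708-5p) in RPE-1, with the 3 groups apart, by log2 0.74 and 1.67. In MCF10A its values were 2644, 3209 and 2982 (siNT), 3380.0, 3694 and 3931 (hsa-miR-28-5p) and 3990.1, 3724 and 4072 (hsa-miR-708-5p), called higher with both mimics. PRC1, DLGAP5, ANLN and ECT2, which bundle the midzone, stabilise the spindle, scaffold the contractile ring and activate RhoA there, rose by log2 0.89, 0.90, 0.47 and 1.40 with hsa-miR-708-5p in RPE-1. Of these 4, ECT2 alone was also called with hsa-miR-28-5p in RPE-1 (log2 0.41), and none was called in MCF10A, where DLGAP5 passed with hsa-miR-28-5p once the replicate number was a block (log2 0.25, adjusted p = 0.0477, against 0.0572 without it).

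In the last group 2 of 4 genes were called higher with hsa-miR-708-5p in RPE-1, and 1 was called lower there with hsa-miR-28-5p. FOXM1 (GRCh38.p14 chr12:2857680-2877174), the transcription factor of G2/M genes, was 1674, 1068 and 1592 (siNT), 779, 1126 and 1019 (hsa-miR-28-5p) and 1645, 1383 and 2061 (hsa-miR-708-5p). It overlapped siNT with hsa-miR-708-5p (log2 0.24, interval -0.21 to 0.69, not called), and with hsa-miR-28-5p it was called lower (log2 -0.56, adjusted p = 0.0425), a call lost without siNT replicate 1 or 3 and without hsa-miR-28-5p replicate 1 or 3, under library size scaling, without the variance trend and in a fit of both groups alone. In MCF10A FOXM1 was 1554, 2017 and 1609.6 (siNT), 1539, 1466 and 1515 (hsa-miR-28-5p) and 1595, 1378 and 1326 (hsa-miR-708-5p), with log2 fold changes of -0.19 and -0.26 that were not called. CDCA3, which triggers degradation of WEE1 for mitotic entry, measured 248, 154 and 227 (siNT), 184, 119 and 185 (hsa-miR-28-5p) and 277, 174 and 302 (hsa-miR-708-5p) in RPE-1 and 209, 321 and 243 (siNT), 328, 357 and 448 (hsa-miR-28-5p) and 346, 435 and 477 (hsa-miR-708-5p) in MCF10A. Its only call was in MCF10A with hsa-miR-708-5p (log2 0.71), and with the replicate number as a block hsa-miR-28-5p also passed there (log2 0.56, adjusted p = 0.0161, against 0.0575 without the block).

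MKI67 (GRCh38.p14 chr10:128096659-128126423), the proliferation antigen Ki-67 that coats mitotic chromosomes, was lower in MCF10A and higher in RPE-1 with hsa-miR-708-5p. Its MCF10A values were 13863, 13118 and 10905 (siNT), 11172, 9639 and 10663 (hsa-miR-28-5p) and 8372, 8076 and 7732 (hsa-miR-708-5p), with hsa-miR-708-5p below all other libraries (log2 -0.64, SE 0.11, adjusted p = 0.0015). In RPE-1 they were 11719, 7149.8 and 9567 (siNT), 6699, 8548 and 8197 (hsa-miR-28-5p) and 14329, 11505 and 17407 (hsa-miR-708-5p), a log2 fold change of 0.61 (adjusted p = 0.0171) with overlap of replicate 2. This RPE-1 call was lost without siNT replicate 2 and without hsa-miR-708-5p replicate 3 (adjusted p of up to 0.0732). TOP2A, the topoisomerase that untangles chromosomes, was 6546, 4237 and 7709 (siNT), 7854, 7561 and 9301 (hsa-miR-28-5p) and 14078, 10098 and 14352 (hsa-miR-708-5p) in RPE-1 and 2.12-fold higher with hsa-miR-708-5p. In MCF10A TOP2A was 13557, 13783 and 13771 (siNT), 14826, 19419 and 19006 (hsa-miR-28-5p) and 11864, 16026 and 14781 (hsa-miR-708-5p), above siNT in every hsa-miR-28-5p library but not called (log2 0.36, adjusted p = 0.0814, and 0.0276 with the replicate number as a block).

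**Figure D2:**
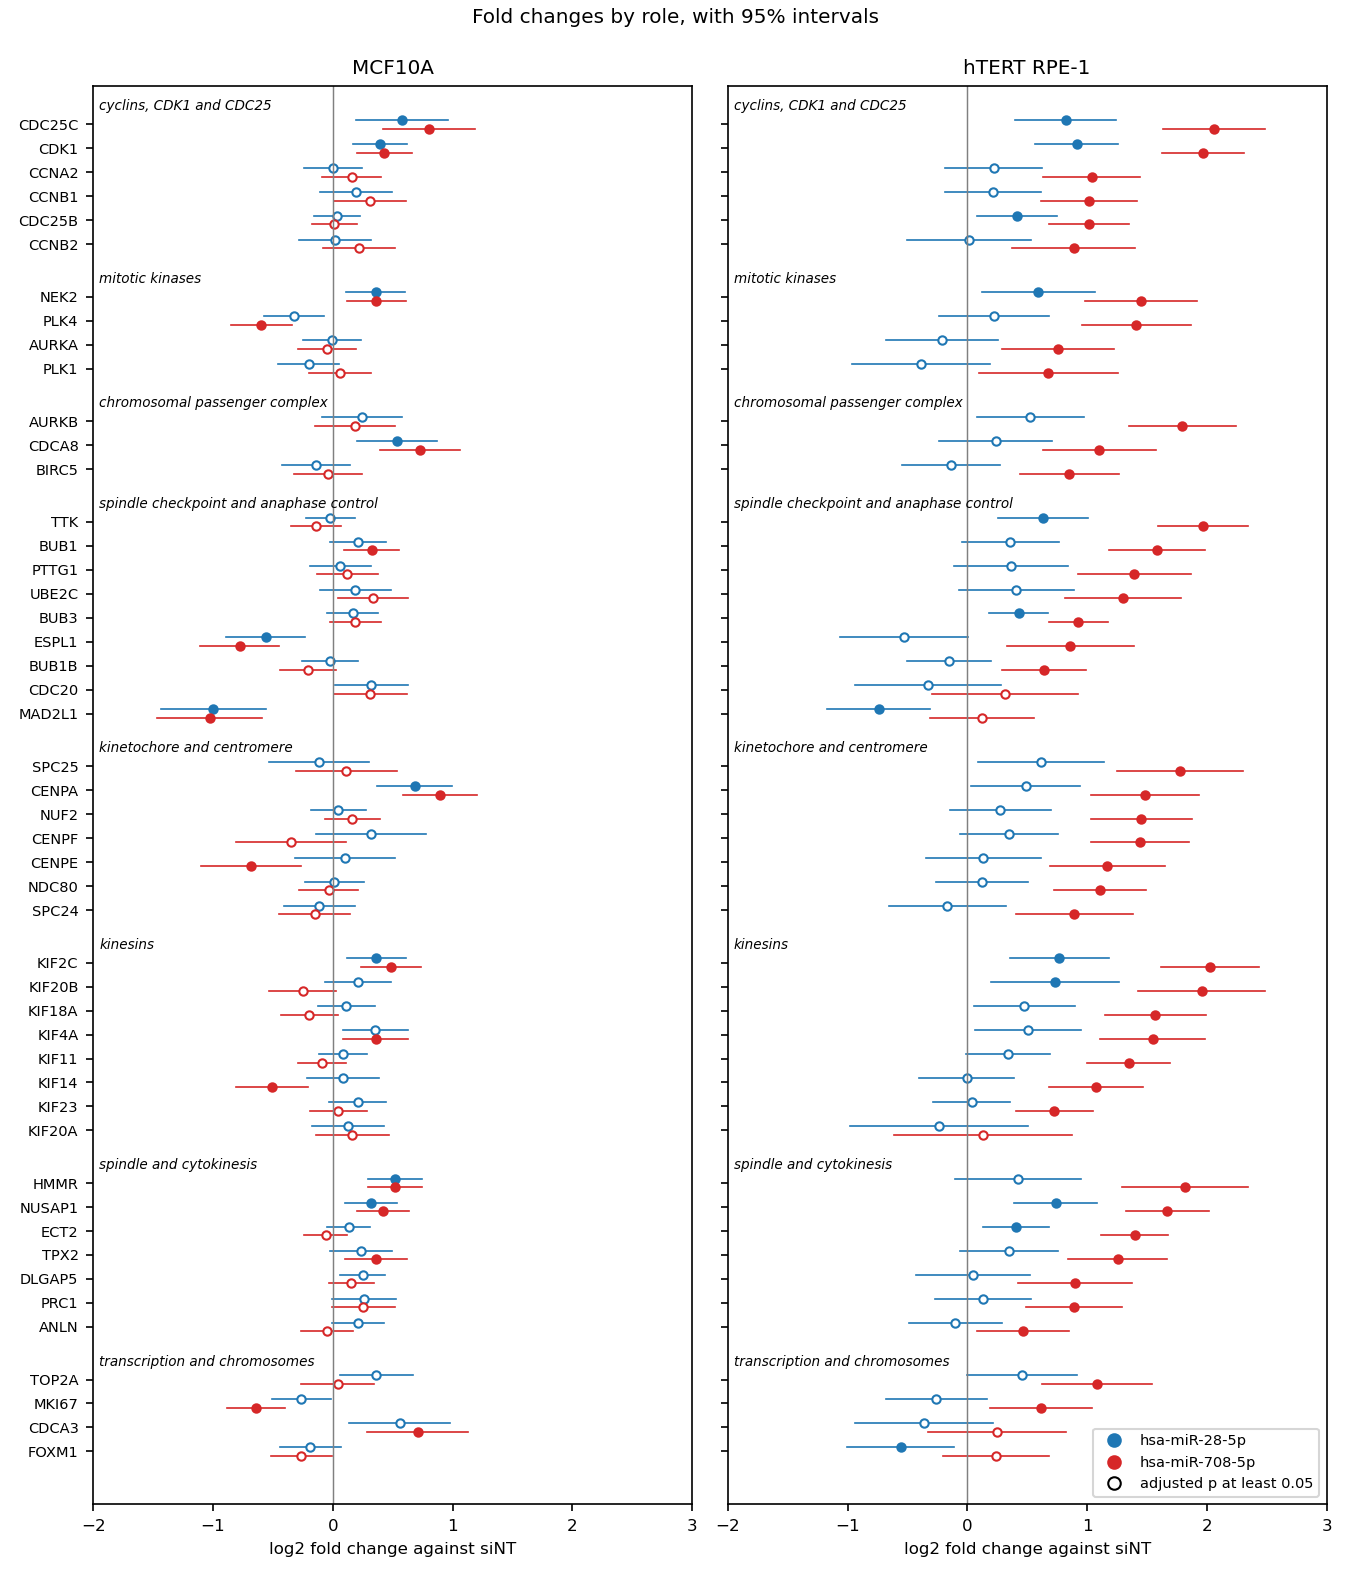
Log2 fold change against siNT (horizontal axis) of each of the 48 genes (vertical axis, grouped by role), for hsa-miR-28-5p in blue and hsa-miR-708-5p in red, in MCF10A on the left and RPE-1 on the right. Points are limma estimates, lines are 95% intervals, and filled points have an adjusted p below 0.05. In RPE-1, 43 red points are filled and all 48 lie right of 0, while in MCF10A 12 are filled right of 0 and 6 left.

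**Figure D3:**
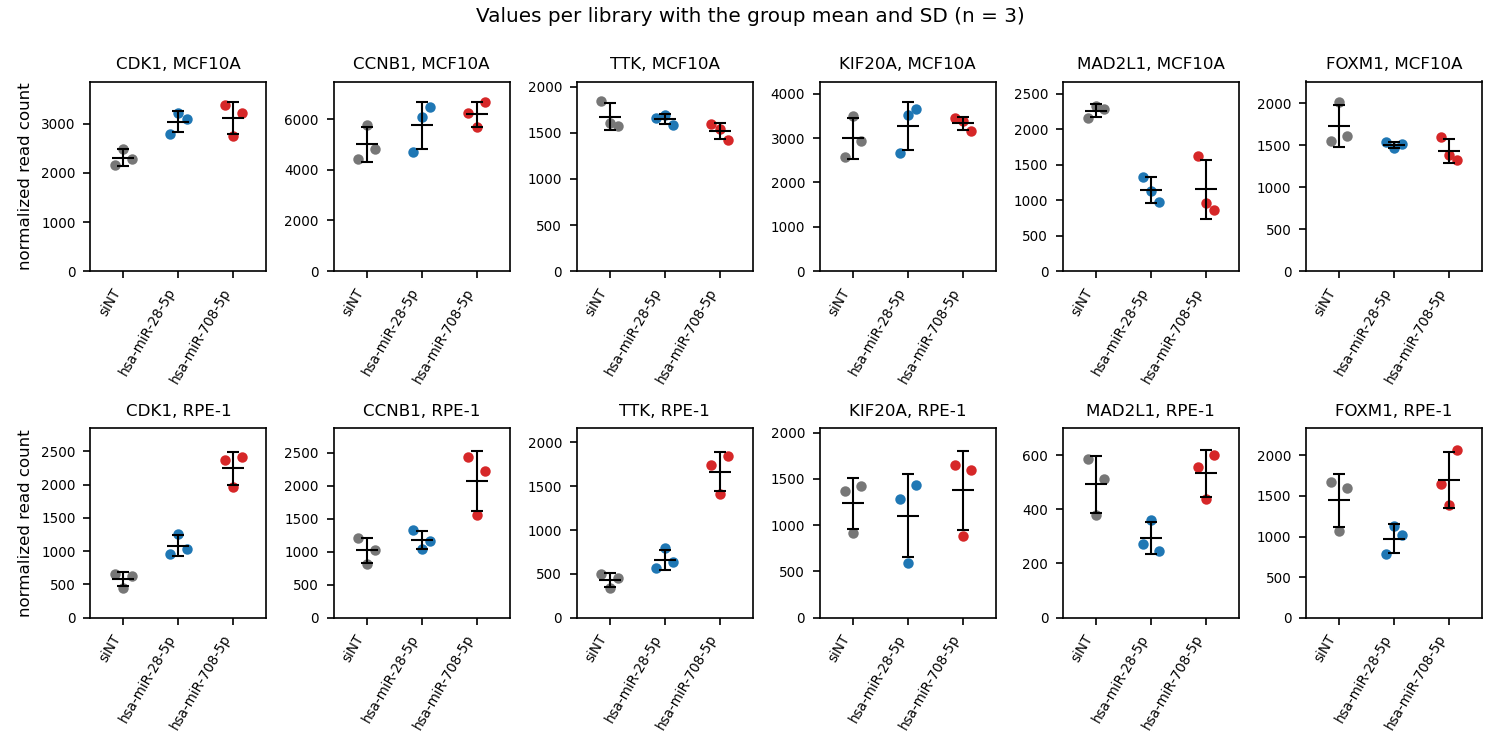
Normalized read counts (vertical axes, starting at 0) of CDK1, CCNB1, TTK, KIF20A, MAD2L1 and FOXM1 in each library of MCF10A (top) and RPE-1 (bottom) by group, with black marks for the mean and SD of 3 replicates. CDK1 and TTK in RPE-1 rise from siNT through hsa-miR-28-5p to hsa-miR-708-5p, KIF20A overlaps in all groups, and MAD2L1 is below siNT with both mimics in MCF10A but with hsa-miR-28-5p only in RPE-1.

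Both comparisons of a line use the same siNT libraries, and their calls are set side by side here. In MCF10A, 8 genes were called higher with both mimics (CDK1, CDC25C, NEK2, CDCA8, CENPA, KIF2C, HMMR and NUSAP1) and 2 lower with both (MAD2L1 and ESPL1). A further 4 were called higher with hsa-miR-708-5p only (BUB1, KIF4A, TPX2 and CDCA3), 4 lower with it only (PLK4, CENPE, KIF14 and MKI67), and 30 had no call. In RPE-1, 10 were called higher with both, 33 higher with hsa-miR-708-5p only, 2 (MAD2L1 and FOXM1) lower with hsa-miR-28-5p and not called with hsa-miR-708-5p, and 3 (CDC20, KIF20A and CDCA3) with neither.

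In 3 of the 4 comparisons with siNT the counts depended on single libraries. In MCF10A the 10 calls became 4 without siNT replicate 7, 6 without siNT replicate 8, 3 without siNT replicate 9, 16 without hsa-miR-28-5p replicate 7, 3 without replicate 8 and 4 without replicate 9. With the replicate number as a block 15 were called, of which 12 were higher and 3 lower. MAD2L1, CENPA and HMMR kept their hsa-miR-28-5p call under every alternative that was run, and the other 7 lost it without siNT replicate 9 and without hsa-miR-28-5p replicate 8. In RPE-1 the median of 0.26 with hsa-miR-28-5p became 0.08 without siNT replicate 2, with 6 called higher and 2 lower, and 6 higher and 5 lower without replicate 2 of both siNT and hsa-miR-708-5p. CDC25B, ECT2, KIF20B and NEK2 lost that call without siNT replicate 2. With hsa-miR-708-5p in MCF10A, the 18 calls became 11 without siNT replicate 7, with 7 higher and 4 lower, and those lost were BUB1, CDCA3, CENPE, KIF14, KIF4A, NEK2 and TPX2. With hsa-miR-708-5p in RPE-1, ANLN, MKI67 and PLK1 lost their call without siNT replicate 2 and without hsa-miR-708-5p replicate 3.

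The mimics were then compared with each other directly, at the same dose and time. They differ in sequence outside the shared seed. In RPE-1, 44 of the 48 genes were called higher with hsa-miR-708-5p than with hsa-miR-28-5p (9.88% of all genes) and 0 lower (11.4%), and the median log2 difference was 0.99. Of these, 21 differed at least 2-fold (2.56% of all genes), and in 45 of the 48 the groups did not overlap (18.5% of all genes). Without replicate 2 of siNT and hsa-miR-708-5p, 47 were called. The siNT library is no part of this difference. The hsa-miR-708-5p library was the lowest of its group for 47 of the 48. Leaving it out therefore raises the difference and is no check on the count. Leaving out each library of both groups in turn gave 30 to 47 calls. Of 46 DNA replication and S phase genes 33 were also called higher and 0 lower (median 0.82), and of 31 other kinetochore genes 26 and 0. The largest differences among the 48 were HMMR (log2 1.39, SE 0.24), ESPL1 (1.39, SE 0.24), TTK (1.34, SE 0.17), AURKB (1.27, SE 0.20) and KIF2C (1.26, SE 0.19). MAD2L1 and FOXM1, which were not called against siNT with hsa-miR-708-5p, were called higher than with hsa-miR-28-5p (log2 0.86 and 0.80).

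The 4 genes without a call between the mimics in RPE-1 were KIF20A (log2 0.36, 95% interval -0.38 to 1.11), CDC20 (0.64, 0.04 to 1.25), TOP2A (0.63, 0.17 to 1.09) and CDCA3 (0.61, 0.03 to 1.19). With the replicate number as a block, TOP2A, CDC20 and CDCA3 passed as well, at adjusted p values of 0.00734, 0.0247 and 0.0111.

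In MCF10A the same comparison by limma called 0 of the 48 genes (1.55% of all genes), with 11 at an unadjusted p below 0.05, of which 10 were lower and 1 higher with hsa-miR-708-5p. Over the 48 the median difference was -0.01 on the log2 scale. Those with the largest differences were CENPE (-0.79, 95% interval -1.20 to -0.37), CENPF (-0.67, -1.13 to -0.21) and KIF14 (-0.59, -0.89 to -0.29), which were chosen after the values were seen. Their transcripts are long (8541, 10290 and 7291 bases), and each was lowest of its group in hsa-miR-708-5p replicate 7. Spearman's rho between transcript length and this difference was -0.71 over the 48 and -0.23 over 11917 genes, and no test of it was made. For CDK1 the difference between the mimics was 0.04 in MCF10A, with an interval of -0.19 to 0.26, and 1.06 in RPE-1. The lines were not tested against each other for this comparison.

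The difference between the lines was tested on the fold changes themselves, over the 13339 genes tested in both. With hsa-miR-708-5p, 39 of the 48 responses were more positive in RPE-1 than in MCF10A (20.2% of all genes) and 0 less (19.6%), with a median difference of 1.11 on the log2 scale. For 28 genes the difference was called and at least 2-fold (8.48% of all genes). KIF20B (2.21, SE 0.27), TTK (2.11, SE 0.19), PLK4 (2.01, SE 0.24), CENPE (1.85, SE 0.29) and CENPF (1.79, SE 0.28) differed most. Without replicate 2 of siNT and hsa-miR-708-5p in RPE-1, 41 differed. The difference was not particular to the members. Of 46 DNA replication and S phase genes 42 were more positive in RPE-1 and 0 less (median 1.33), and of 31 other kinetochore genes 24 and 0. Of the calls within each line, 11 genes were higher in both, 27 higher in RPE-1 without a call in MCF10A, and 5 (PLK4, ESPL1, CENPE, KIF14 and MKI67) higher in RPE-1 and lower in MCF10A.

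For 9 genes the lines were not called different. The difference was 0.00 for CDC20 (95% interval -0.65 to 0.66) and -0.03 for KIF20A (-0.81 to 0.74), and for CDCA3 it was -0.46 (-1.14 to 0.22). Over the 48 genes 46 differences were above 0. By the same test ANLN (0.51, adjusted p = 0.0502), CCNB2 (0.67, 0.05915), CENPA (0.59, 0.0687) and PLK1 (0.62, 0.103) were positive and missed the threshold. With hsa-miR-28-5p only 2 of the 48 responses differed between the lines (23.4% of all genes), TTK (log2 0.65, adjusted p = 0.0233) and CDCA3 (-0.92, adjusted p = 0.0456). Neither call was firm, since TTK was lost without siNT replicate 2 or hsa-miR-28-5p replicate 2 of RPE-1, and CDCA3 without each of 7 single libraries, without the variance trend and in a joint fit of both lines.

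**Figure D4:**
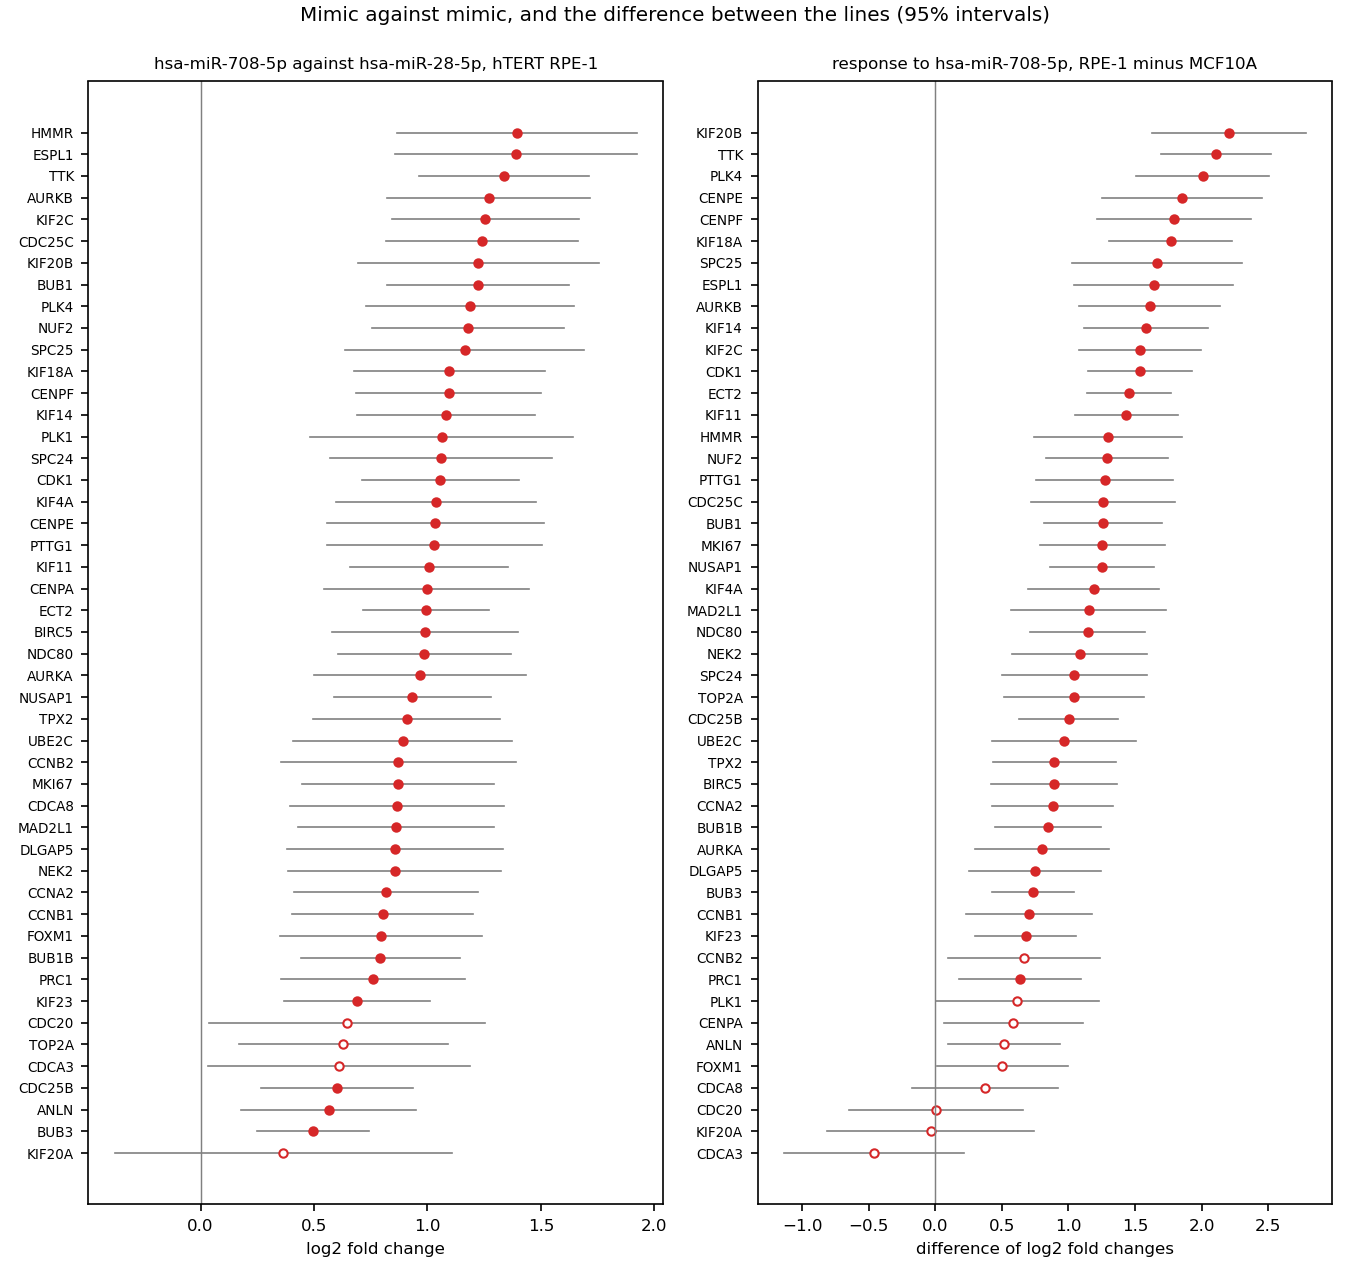
On the left, the log2 fold change of hsa-miR-708-5p against hsa-miR-28-5p in RPE-1, and on the right, the response to hsa-miR-708-5p in RPE-1 minus that in MCF10A (horizontal axes, log2 units), for the 48 genes in order of size. Lines are 95% intervals and filled points have an adjusted p below 0.05, 44 on the left and 39 on the right.

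Genes around the mitotic set were read against the same shares of all genes in RPE-1 with hsa-miR-708-5p, 30.9% called higher and 31.2% lower. Of 31 other kinetochore genes 27 were called higher and 0 lower (median log2 fold change 1.21), led by CENPH (2.45) and CENPU (2.18), and all 8 condensin genes were higher (median 1.09). Cohesin gave 5 higher and 2 lower of 10, and the anaphase-promoting complex 5 higher and 4 lower of 17, both closer to those shares, with FBXO5, its inhibitor, at 1.05 and the subunit ANAPC15 at -1.01. Of 46 DNA replication and S phase genes 37 were higher and 1 lower (median 1.07), so genes of S phase rose as well. In MCF10A with hsa-miR-708-5p the same S phase genes gave 1 higher and 15 lower (median -0.23), while the other kinetochore genes gave 5 higher and 1 lower, where 15.5% of all genes were higher and 17.3% lower.

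With hsa-miR-28-5p fewer genes of the surrounding lists were called in RPE-1. In RPE-1, 10 of the other kinetochore genes were higher and 1 lower (median 0.31), 1 condensin gene was higher, and 16 S phase genes were higher and 1 lower (median 0.33), where 23.3% of all genes were higher and 23.5% lower. In MCF10A, 3 other kinetochore genes were higher and 2 lower, 13 S phase genes were lower and none higher (median -0.24), and 4 of the anaphase-promoting complex were lower, where 10.7% of all genes were higher and 12.0% lower.

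Regulators of the set were called in both directions, as were all genes. Of 12 MuvB and DREAM genes 6 were higher and 3 lower with hsa-miR-708-5p in RPE-1 (all genes, 30.9% and 31.2%), led by the MuvB subunits LIN9 (log2 2.13) and LIN54 (1.61). MYBL2, the B-MYB factor that joins MuvB, was lower with hsa-miR-28-5p in both lines (log2 -0.76 in MCF10A and -1.13 in RPE-1) and, in MCF10A, with hsa-miR-708-5p (-0.997). Of 12 tested regulators of mitotic entry 7 were higher and 3 lower with hsa-miR-708-5p in RPE-1, with MASTL, the kinase that protects CDK1 substrates, at 2.23 and the checkpoint kinase CHEK2 at 1.76. WEE1, the kinase that restrains CDK1, was higher with both mimics in MCF10A (log2 0.77 and 1.17) and with hsa-miR-28-5p in RPE-1 (1.19). Genes of these lists are named only where they are among the called genes with the largest changes of a comparison. MYBL2 and WEE1 are therefore not given for hsa-miR-708-5p in RPE-1, which does not mean that they were unchanged there.

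CDKN1A, the cell cycle inhibitor p21, is no member but acts on the DREAM complex and is set beside the members. In RPE-1 it was 5698, 6211 and 6336 (siNT), 5895, 4753 and 5702 (hsa-miR-28-5p) and 3112, 3470.0 and 2993 (hsa-miR-708-5p), and fell by 0.93 on the log2 scale with hsa-miR-708-5p (adjusted p = 2.23e-05), with no overlap. With hsa-miR-28-5p it was not called (log2 -0.16, 95% interval -0.39 to 0.06), nor with either mimic in MCF10A (log2 0.22 and -0.09). Its direct comparison between the mimics in RPE-1 gave log2 -0.77 (adjusted p = 0.00119). Whether it has a part in the rise of the mitotic genes was not tested.

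Members with and without the promoter letters rose in like shares. With hsa-miR-708-5p in RPE-1, 27 of the 30 members with the CHR letters were called higher (90.0%, median log2 fold change 1.11) and 10 of the 11 without (90.9%, median 1.17). Outside the members, 493 genes with both the CHR letters and CCAAT had 45.2% called higher and 22.3% lower in that comparison (median 0.25), against 28.8% and 34.3% of 5840 genes with neither (median -0.05). In MCF10A with hsa-miR-708-5p the same 493 genes had 18.3% called higher and 15.6% lower, and the 5840 had 14.3% and 19.5%.

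The 4 members with a 7mer or 8mer seed match had lower medians than the 40 without a match. With hsa-miR-708-5p these medians on the log2 scale were -0.50 against 0.16 in MCF10A and 0.75 against 1.21 in RPE-1. Across all genes with a transcript they were -0.14 against 0.00 in MCF10A and -0.26 against 0.10 in RPE-1. With 4 genes the member medians rest on MAD2L1 and MKI67, which were called lower in MCF10A, and on CENPF and SPC24, which were not. SPC24, with an 8mer, had log2 fold changes of -0.11 and -0.15 in MCF10A. MKI67 (12716 bases), CENPF (10290) and MAD2L1 (5227) also have transcripts longer than the median member (2991), while SPC24 (2290) does not. Seed match and length thus coincide in most of these genes, and their parts were not tested.

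In MCF10A longer transcripts had lower fold changes with hsa-miR-708-5p. Over the 48 genes Spearman's rho between length and log2 fold change was -0.61, where over 11917 genes it was 0.02, and in RPE-1 it was -0.16 over the 48. The 24 genes longer than the median of 2991 bases had a median log2 fold change of -0.07 and the 24 shorter ones 0.20. Of the 6 genes called lower, MKI67, CENPE, KIF14 and ESPL1 are among the longest, and MAD2L1 and PLK4 are longer than the median. Points share libraries and annotation and no test was made. The relation also varied between libraries of 1 group: for the log2 ratio to the siNT mean, rho with length was 0.63, -0.48 and -0.13 in the MCF10A siNT libraries (replicates 7, 8 and 9) and -0.66, -0.50 and -0.54 in the hsa-miR-708-5p libraries.

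**Figure D5:**
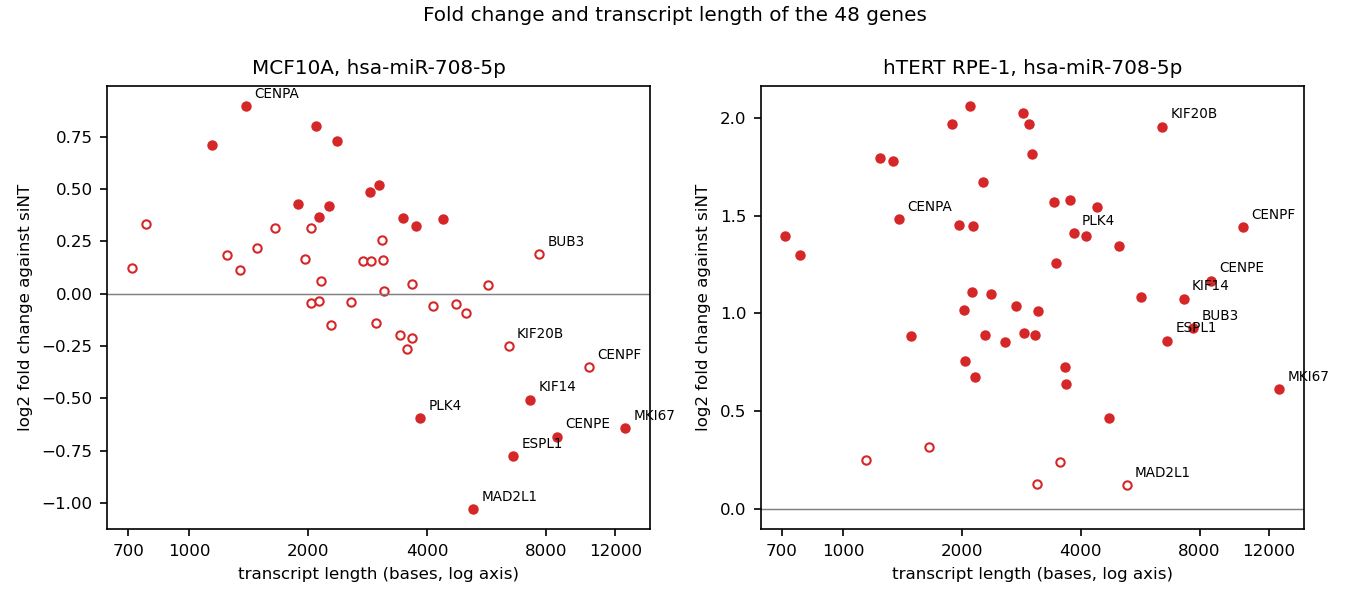
Log2 fold change of hsa-miR-708-5p against siNT (vertical axis) against transcript length in bases (horizontal log axis) for the 48 genes in MCF10A (left) and RPE-1 (right), with filled points at an adjusted p below 0.05. In MCF10A the long transcripts MKI67, CENPE, KIF14 and ESPL1 lie below 0 (rho -0.61 over the 48 genes), and in RPE-1 all 48 points lie above 0 (rho -0.16).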

How the data were processed

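Polyadenylated RNA of 18 libraries was sequenced, 3 biological replicates for each of 3 treatments in each of 2 cell lines. The authors aligned reads to hg38 with HISAT2 2.1.0 in Partek Flow, estimated reads per gene against RefSeq transcripts and divided them by DESeq2 median-of-ratios size factors, once for each line. The deposited normalized signal values are these scaled estimated read counts. Of low values 82.1 to 85.3% were whole reads within 0.05 once the size factor was undone, from which depth was read. A second kind of deposited file holds the authors' own comparisons (fold ratios, log2 ratios, p-values and false discovery rates) and was not used.

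Per line, genes that reached 10 in 3 or more of 9 libraries were tested with limma 3.58.1 in R 4.3.3 on log2(value + 1), with 3 group means, a variance trend and Benjamini-Hochberg adjustment over all genes tested. Fold changes are on the log2(value + 1) scale. A difference between the lines is the difference of both log2 fold changes, with their errors combined. The procedure was tested on simulated data. All 48 genes were counted, and values in every library are printed for fixed representatives of each role and for the members with the largest changes. The members, lists and rules were chosen with earlier results of these data known. Alternatives were other scalings, pseudocounts and filters, no variance trend, fits of 2 groups, a replicate block, a joint fit of both lines, a 2-fold limit and leaving out each library. Leaving out replicate 2 of siNT and hsa-miR-708-5p together was added after the values were seen.

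Whether replicate numbers pair the libraries was read from the correlation of same-numbered libraries' deviations from their group means. It was above 0.1 for every number between siNT and each mimic in MCF10A and between the mimics in RPE-1. In MCF10A it was 0.263, 0.176 and 0.111 for hsa-miR-28-5p and 0.302, 0.115 and 0.155 for hsa-miR-708-5p. Between the mimics it was 0.278, 0.198 and 0.134 in RPE-1 and 0.121, 0.025 and 0.177 in MCF10A. With siNT in RPE-1 it was 0.021, 0.043 and 0.023 for hsa-miR-28-5p and 0.042, 0.151 and 0.073 for hsa-miR-708-5p. All groups of a line carry the same numbers, and libraries of unlike number were not correlated. Whether the numbers pair the libraries is therefore not settled, and the block is given as an alternative. Floors of single values cover counting error only. Intervals of fold changes, and of differences between the lines, rest on the limma standard errors, which reflect the spread between replicate libraries.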

Additional observations from a re-analysis of the deposited data

Results flagged for a closer look

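The response of the mitotic genes to hsa-miR-708-5p differed between the lines for 39 of the 48 by the test of the difference itself, all more positive in RPE-1 (20.2% of all genes). Of 46 DNA replication and S phase genes 42 were more positive there as well, so this was not particular to the mitotic genes. Among the 48 the difference on the log2 scale was 2.21 for KIF20B, 2.11 for TTK, 2.01 for PLK4, 1.85 for CENPE and 1.79 for CENPF. With hsa-miR-28-5p the response differed for 2 of the 48 genes, by 0.65 for TTK and by -0.92 for CDCA3, whose log2 fold changes against siNT were 0.56 in MCF10A and -0.36 in RPE-1, neither of them called. Of the 46 S phase genes 18 differed with that mimic, all more positive in RPE-1, where 23.4% of all genes differed. The part of depth, cell markers or the lowest replicate in these differences was not tested, beyond the 41 genes that differed for hsa-miR-708-5p without replicate 2 of siNT and hsa-miR-708-5p in RPE-1. Groups of 3 libraries are too small for a search for single outlying values.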

How the results depend on the processing

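No called fold change of a member turned its sign under any alternative run, and 188 of 6624 alternative values changed sign, all of members without a call. Of the calls, 40 of 43 with hsa-miR-708-5p in RPE-1, 30 of 44 between the mimics there, 35 of 39 between the lines, 11 of 18 with hsa-miR-708-5p in MCF10A, 7 of 12 with hsa-miR-28-5p in RPE-1 and 3 of 10 with it in MCF10A held in every alternative. For hsa-miR-28-5p the 2 calls between the lines both failed in at least 1.

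Scaling by library size gave 18 calls with hsa-miR-28-5p in MCF10A, and medians of 0.26 with each mimic there (0.2606 and 0.2604), 1.42 with hsa-miR-708-5p in RPE-1 and 1.22 between the mimics there. Without the variance trend 5 were called with hsa-miR-28-5p in MCF10A and 1 between the lines. A joint fit of both lines also called 1 between the lines for hsa-miR-28-5p, and a fit of the mimic groups alone called 1 between the mimics in MCF10A. With a 2-fold limit as well the count was 0 for hsa-miR-28-5p in each line and between them, 1 for hsa-miR-708-5p in MCF10A, and 21 between the mimics in RPE-1.

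Leaving out each library in turn gave, in MCF10A, 3 to 16 calls for hsa-miR-28-5p and 11 to 17 for hsa-miR-708-5p, 0 to 1 between the mimics there, and 8 to 13 under hsa-miR-28-5p, 40 to 44 under hsa-miR-708-5p and 30 to 47 between the mimics in RPE-1. Between the lines it gave 0 to 5 for hsa-miR-28-5p and 35 to 44 for hsa-miR-708-5p. Medians then ran in MCF10A from 0.13 to 0.19 for hsa-miR-28-5p, from 0.051 to 0.16 for hsa-miR-708-5p and from -0.086 to 0.049 between the mimics, and in the same order from 0.08 to 0.37, from 0.92 to 1.27 and from 0.87 to 1.12 in RPE-1. The cause was not tested.

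With the replicate number as a block, 15 and 19 were called in MCF10A against siNT and 47 between the mimics in RPE-1. The block gave 2 between the mimics in MCF10A (CENPE and KIF14). In RPE-1 against siNT it gave 21 for hsa-miR-28-5p (CDCA3, CENPA, HMMR, KIF4A, PLK1, SPC25, TOP2A, TPX2 and UBE2C added) and 43 for hsa-miR-708-5p. The block lost no call, and beside those given with the results it added DLGAP5 and KIF4A with hsa-miR-28-5p in MCF10A, and CDC20 (hsa-miR-28-5p) and ANLN, CCNB2, CENPA and PLK1 (hsa-miR-708-5p) between the lines.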
